A study of Mus musculus with 31 samples.

Results

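Cell division genes were followed across the lymphoid organs of GIT2KO and WT mice, as 40 genes that copy DNA or carry a cell through mitosis. The list is one of gene names, and its genes were found on the Illumina MouseRef-8 bead array through the symbols of its annotation. Of the 40, 36 had a probe of that symbol, and 32 had at least 1 probe above background (detection p under 0.05) on 3 or more of the 31 arrays and were tested, out of 10496 genes tested on the array. GIT2 is a scaffold protein that binds G protein-coupled receptor kinases, and the GIT2KO mice are homozygous carriers of a gene-trap insertion on a C57BL/6 background. All mice were males of 12 months, fasted before tissue collection. Total RNA was taken from the thymus, the inguinal lymph nodes (ILN), the mesenteric lymph nodes (MLN) and the spleen of GIT2KO and C57BL/6 WT mice, and, in GIT2KO mice alone, from the parathymic lobes (PTL), the cervical organs that the labels list as extra lymph nodes. This gave 9 groups of 3 samples, 27 samples in all, from 7 animals. The tissues of a genotype came from the same 3 animals, except that the PTL sample numbered 3 came from a GIT2KO mouse with no other sample here.

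Before a cell divides, the Mcm2 to Mcm7 helicase is loaded at replication origins by Cdc6 and Cdt1, ribonucleotide reductase and thymidylate synthase supply the DNA building blocks, and Pcna clamps the polymerases to the template. The kinases Cdk1, Plk1 and Aurka then drive entry into mitosis, and motor and bundling proteins such as Kif11, Tpx2 and Prc1 build the spindle. Cdc20 and Ube2c act with the anaphase-promoting complex, which lets the chromosomes part. Transcription of the replication genes is classically under E2F factors and that of the mitotic genes under factors bound to CCAAT boxes and to the cell cycle homology region. Cycling cells are plentiful in the thymus, where young thymocytes expand, in germinal centres, and in the erythroid and myeloid precursors of the mouse spleen.

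The start regions of the genes are shown first, because these genes are grouped below by the stage at which they act. RefSeq windows of 300 bases (build GRCm38.p6, 250 bases before to 50 bases after the transcript start) were at hand for 33 of the 40 genes, all but Aurkb, Ccna2, Tipin, Gins2, Tpx2, Kif20a and Mcm4. They were searched on both strands for an E2F-like word (TTTCCCGC, TTTCGCGC, TTTGCCGC or TTTGGCGC), for CCAAT, and for the cell cycle homology region (TTTGAA or TTCGAA). The E2F-like word was present in 9 of the 33 genes (27.3%), against 4.28% of the 8510 tested genes with a window and 2.6% of all 27025 genes with one. CCAAT was present in 26 of the 33 (78.8%), against 42.9% of the tested genes, and the cell cycle homology region in 18 of the 33 (54.5%), against 17% of the tested genes. The 33 include genes of the list that were not tested. Among its 28 tested genes with a window, the shares were 32.1% for the E2F-like word, 75% for CCAAT and 50% for the cell cycle homology region. By role, the E2F-like word stood in 6 of 7 licensing and helicase genes in 2 of 8 genes of fork and nucleotide supply, in 1 of 11 genes of mitotic kinases and checkpoint and in 0 of 7 spindle genes. The cell cycle homology region stood in 2 of 7 licensing genes, 1 of 8 genes of fork and nucleotide supply, 9 of 11 genes of mitotic kinases and checkpoint and 6 of 7 spindle genes. A match of letters is a description and not a binding site. The windows below belong to the gene of each role with the largest passing difference between GIT2KO and WT spleen, written 5′ to 3′ on the strand of the gene (the minus strand in all 4), with every match of the 3 words in capitals. They lie at chr1:20820263-20820562 (Mcm3), chr5:30073576-30073875 (Tyms), chr10:69352863-69353162 (Cdk1) and chr11:99024140-99024439 (Top2a).
Mcm3: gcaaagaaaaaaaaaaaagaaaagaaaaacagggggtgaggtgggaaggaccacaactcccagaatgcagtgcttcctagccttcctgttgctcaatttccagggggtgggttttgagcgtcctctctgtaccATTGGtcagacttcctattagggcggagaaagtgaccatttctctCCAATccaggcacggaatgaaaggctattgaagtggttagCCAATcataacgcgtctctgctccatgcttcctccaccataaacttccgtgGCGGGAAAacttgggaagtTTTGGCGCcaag
Tyms: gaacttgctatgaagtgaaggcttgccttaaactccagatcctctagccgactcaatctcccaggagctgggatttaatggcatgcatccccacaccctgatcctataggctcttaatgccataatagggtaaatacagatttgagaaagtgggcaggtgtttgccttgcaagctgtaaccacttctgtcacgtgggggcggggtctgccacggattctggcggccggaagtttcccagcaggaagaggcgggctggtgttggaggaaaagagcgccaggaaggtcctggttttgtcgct
Cdk1: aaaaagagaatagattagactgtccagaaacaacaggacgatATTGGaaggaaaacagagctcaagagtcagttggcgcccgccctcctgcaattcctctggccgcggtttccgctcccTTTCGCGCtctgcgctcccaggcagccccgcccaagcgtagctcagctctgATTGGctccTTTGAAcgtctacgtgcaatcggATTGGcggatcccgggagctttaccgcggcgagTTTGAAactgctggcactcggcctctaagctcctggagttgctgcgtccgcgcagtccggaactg
Top2a: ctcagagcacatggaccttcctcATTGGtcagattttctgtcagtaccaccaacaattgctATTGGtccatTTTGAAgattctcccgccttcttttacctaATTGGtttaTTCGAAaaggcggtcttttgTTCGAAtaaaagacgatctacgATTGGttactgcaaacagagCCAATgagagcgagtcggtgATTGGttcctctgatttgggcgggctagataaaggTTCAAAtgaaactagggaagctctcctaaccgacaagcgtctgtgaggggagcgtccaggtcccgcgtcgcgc
The Mcm3 window holds 2 E2F-like words just after the start and 3 CCAAT boxes before it. The Cdk1 window holds 1 E2F-like word, 3 CCAAT boxes and 2 copies of the cell cycle homology region, the nearer beginning 15 bases before the start. The Top2a window holds 6 CCAAT boxes and 4 copies of the cell cycle homology region, and the Tyms window none of the 3 words.

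Mean signal ran from 209 to 591 over the 31 arrays, with 45.9% to 52.8% of probes detected, and the number of arrays limits the precision of every value. Git2 itself was lower in GIT2KO samples by 1.96 on the log2 scale in thymus, 1.08 in ILN, 1.63 in MLN and 0.74 in spleen (adjusted p = 1.55e-05, 0.0184, 0.000315 and 0.0341 by limma), without overlap between genotypes except in spleen, where WT samples read 6.88, 7.23 and 6.29 and GIT2KO samples 5.69, 5.82 and 6.68. The other Git2 probes did not overlap in spleen (8.14 to 8.27 against 5.80 to 6.40, and 8.31 to 8.78 against 5.89 to 6.64). Thymic epithelium markers were at a mean log2 signal of 10.8 to 11.1 in every thymus sample and at or below 5.95 in every other sample, and B cell markers were at 10.2 to 11 in every node, spleen and PTL sample. In the PTL, Krt5, Krt8, Krt18, Prss16, Dntt and Rag2 were detected on 0 of 3 arrays. Ccl25, the other thymic epithelium marker tested, was detected in PTL. Its mean was 6.59 there, beside 6.65 in GIT2KO ILN, 6.71 in GIT2KO MLN and 13.24 in GIT2KO thymus. Dntt and Rag2 are from a longer list of double-positive thymocyte markers, whose other genes are not given one by one.

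Some samples stood apart from the others of their group in the cell division genes as a whole. WT MLN 2 had the highest of the 3 values for 31 of the 32 genes, with a mean log2 signal over the genes of 9.52 beside 8.41 and 8.15 in WT MLN 1 and 3. The median SD of the genes was 0.79 in the WT MLN group, against 0.24 over all genes tested. WT spleen 1 was lowest of its group for 30 genes (mean 8.42 beside 9.11 and 9.29), WT thymus 3 for 31 genes (9.17 beside 9.81 and 9.84), and GIT2KO spleen 3 for 31 genes (9.40 beside 9.96 and 9.80). Of these samples, WT MLN 2 had the highest mean signal of the 31 arrays (591, beside 328 and 339 in its group). WT spleen 1 had the lowest share of probes detected, at 45.9%. WT thymus 3 and GIT2KO spleen 3 were at neither end of these ranges. What part the arrays had in these values was not tested. Counts without single samples are given below, by name for some comparisons and only as a range for others.

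Levels of the cell division genes were highest in thymus and GIT2KO spleen and lowest in ILN. Averaged over the 32 genes, the log2 signal was 9.93 ± 0.16 (SD, n = 3, as for every group here) in GIT2KO thymus, 9.72 ± 0.29 in GIT2KO spleen, 9.61 ± 0.38 in WT thymus, 8.94 ± 0.46 in WT spleen, 8.77 ± 0.18 in GIT2KO MLN, 8.70 ± 0.73 in WT MLN, 8.43 ± 0.09 in PTL, 7.94 ± 0.08 in GIT2KO ILN and 7.79 ± 0.20 in WT ILN. Each group overlapped the next in this order, except that all 3 PTL samples (8.34 to 8.52) lay above all 3 GIT2KO ILN samples (7.86 to 8.02). The highest group mean was that of GIT2KO thymus for 16 genes, GIT2KO spleen for 9, WT thymus for 6 and GIT2KO MLN for 1 (Pcna). The lowest was WT ILN for 23, GIT2KO ILN for 8 and WT spleen for 1 (Ezh2). Ccna2 and Ube2c, among the 9 highest in GIT2KO spleen, lay close to background. Whole-tissue RNA cannot tell fewer dividing cells from less message per cell.

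**Figure D1:**
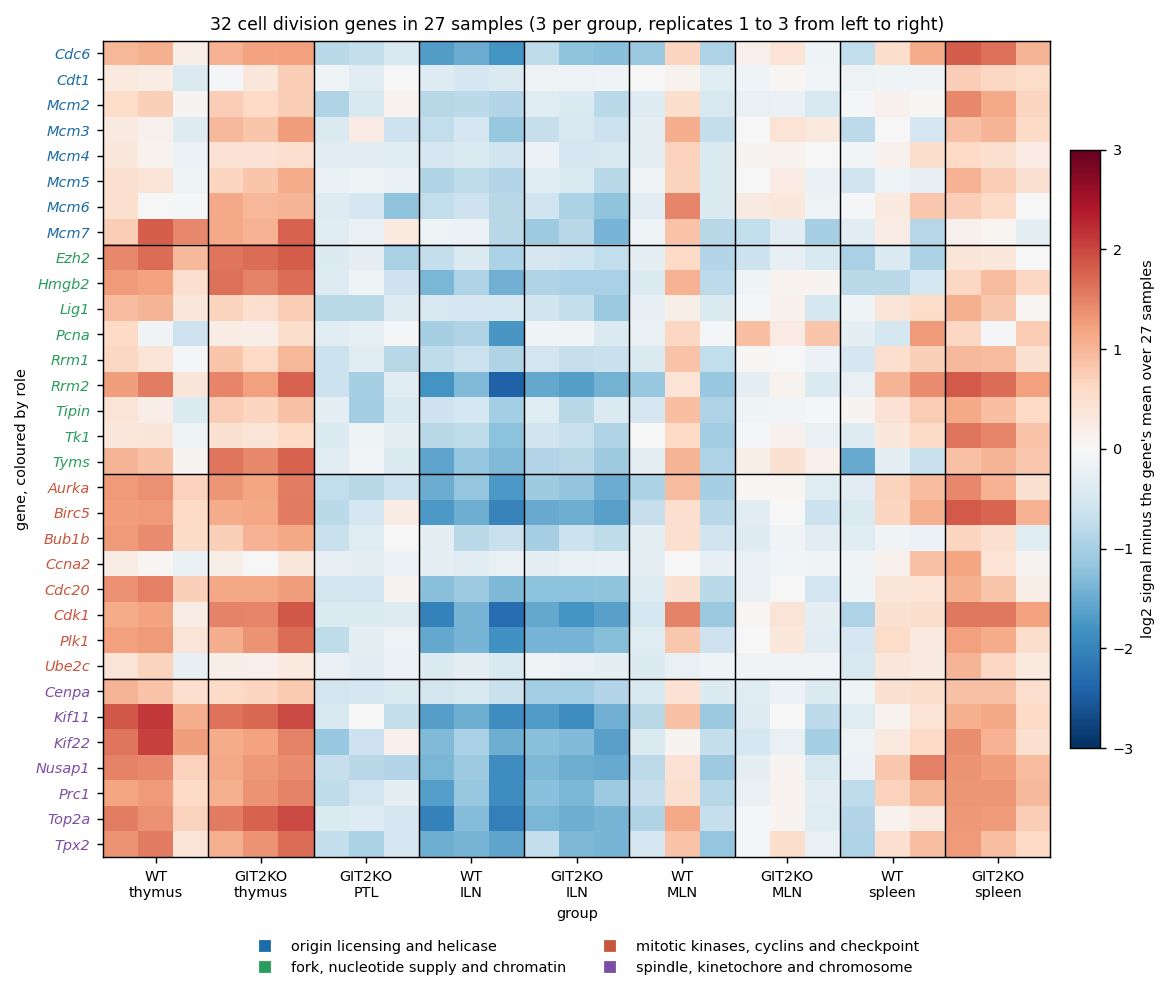
Log2 signal of the 32 tested genes (rows, by role) in the 27 samples (columns, 3 per group), each gene centred on its mean over all samples, red above and blue below. The GIT2KO thymus and GIT2KO spleen columns are red in nearly every row, as are the columns of WT thymus 1 and 2. The ILN columns are blue, and the middle column of WT MLN stands out from both its neighbours.

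The genes differed widely in how far they ranged over the groups. Top2a, the topoisomerase that untangles sister chromosomes, ranged over 3.57 log2 units between its highest and lowest group means, Cdk1 over 3.51, the spindle motor Kif11 over 3.45 and Rrm2, the small subunit of ribonucleotide reductase, over 3.42. At the other end stood Ccna2 (0.83), Mcm4 (0.97), Ube2c (1.02) and Cdt1 (1.07). Ccna2 and Ube2c lay close to background, with 3 and 7 of 31 arrays detected, so their small ranges are bounded by the array. Tpx2 was detected on 25 arrays, Pcna on 30 and the other 28 genes on all 31, so for these 28 the filter did not pick the groups in which a gene is high. Over the 27 samples, Aurka, Plk1, Top2a and Prc1 followed the mean of the 32 genes most closely (Pearson r of 0.98 to 0.99, as a description over samples that share groups), and Pcna (0.61), Ccna2 (0.70) and Mcm7 (0.74) least.

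**Figure D2:**
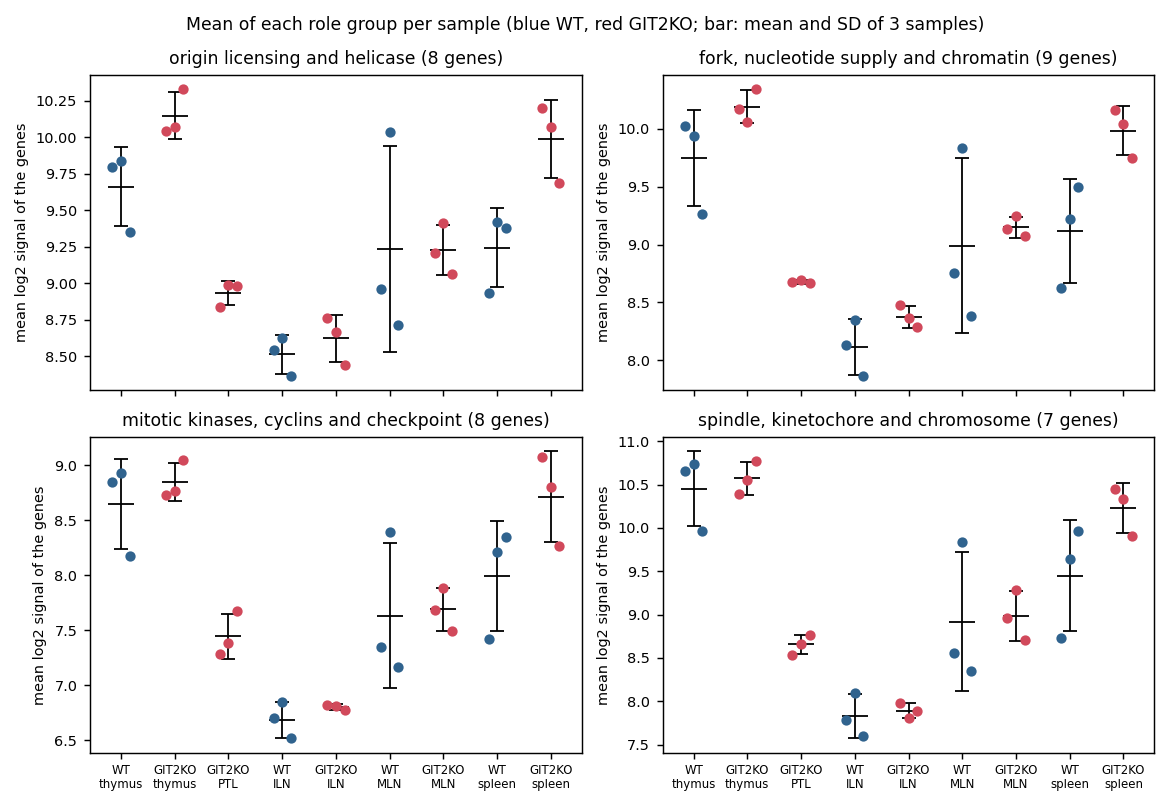
Mean log2 signal of the genes of each role in every sample (points, blue WT and red GIT2KO), with the mean and SD of the 3 samples of a group. In all 4 roles the ILN groups lie lowest, WT MLN has the widest spread, and the GIT2KO spleen mean lies above the WT spleen mean.

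In the spleen, cell division genes were higher in GIT2KO than in WT mice. Of the 32 genes, 14 passed in the higher direction and 0 in the lower (adjusted p under 0.05 by limma, Benjamini-Hochberg over all probes tested), where 10.6% of all genes tested passed as higher and 13.7% as lower. All 32 had a positive difference, with a median of 0.76 on the log2 scale (range 0.09 to 1.71). Over all genes tested the median was −0.04. Ube2c among the 14, and Ccna2 among the 32, lay close to background, with 7 and 3 of 31 arrays detected. Both had their highest group mean in GIT2KO spleen. The filter could keep them through that group, so neither is support for the difference. The 3 GIT2KO values lay above the 3 WT values for 11 of the 32 genes (34.4%), against 14.1% of all genes tested.

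Among the genes that license and unwind origins, 5 of 8 rose in GIT2KO spleen. Mcm3, a subunit of the replicative helicase, read 6.81, 7.57 and 7.07 in the WT spleens and 8.46, 8.60 and 8.15 in the GIT2KO spleens (log2 signal). Every GIT2KO spleen was above every WT spleen, and the difference was 1.25 (SE 0.32, adjusted p = 0.00627), or 2.38-fold. Mcm5, another subunit, read 10.30, 10.78 and 10.65 in WT and 11.94, 11.64 and 11.36 in GIT2KO spleen, a difference of 1.07 (SE 0.22, adjusted p = 0.00108), and Mcm2 read 9.44, 9.65 and 9.54 against 10.94, 10.64 and 10.15, a difference of 1.03 (SE 0.24, adjusted p = 0.00337). For both subunits the genotypes did not overlap. The loading factor Cdt1 was nearly level among the WT spleens, at 9.91, 9.92 and 9.93, and read 10.78, 10.68 and 10.60 in the GIT2KO spleens, a difference of 0.76 (SE 0.17, adjusted p = 0.00256). Cdc6, which loads the helicase together with Cdt1, differed by 1.19 (SE 0.38, adjusted p = 0.0258), but WT spleen 3 at 8.87 lay above GIT2KO spleen 3 at 8.78. Not every subunit of the helicase passed. Mcm4, Mcm6 and Mcm7 had differences of 0.26, 0.09 and 0.29 with adjusted p of 0.364, 0.878 and 0.587, and Mcm6 values overlapped widely (9.33, 9.69 and 10.21 in WT, 10.13, 9.98 and 9.41 in GIT2KO). Mcm6 has 3 other tested probes, with spleen differences from −2.41 to 0.70, none of which passed.

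Of the 9 genes of nucleotide supply, fork and chromatin, 4 rose. Tyms, thymidylate synthase, had the largest difference of all 32 genes, at 1.71 (SE 0.33, adjusted p = 0.000626), or 3.28-fold. It read 7.27, 8.52 and 8.13 in the WT and 9.66, 9.81 and 9.59 in the GIT2KO spleens, and every GIT2KO spleen lay above every WT spleen. Its second tested probe differed by 1.71 as well (adjusted p = 0.00184). Hmgb2, a chromatin protein of cycling cells, was steady within both genotypes (9.95, 9.95 and 10.22 in WT, 11.38, 11.71 and 11.37 in GIT2KO) and differed by 1.45 (SE 0.28, adjusted p = 0.000751). Tk1, thymidine kinase, differed by 1.13 (SE 0.29, adjusted p = 0.00571), and Ezh2, the methyltransferase of histone H3 in Polycomb silencing, by 1.02 (SE 0.26, adjusted p = 0.00573), from 9.17, 9.74 and 9.19 to 10.52, 10.47 and 10.16. Neither gene overlapped between genotypes. The others were not separated from the replicate spread. Rrm2 read 7.88, 9.12 and 9.53 in WT and 9.95, 9.78 and 9.33 in GIT2KO spleen (0.84, SE 0.39, adjusted p = 0.12), Pcna 6.79, 6.54 and 8.34 against 7.68, 7.03 and 7.82 (0.29, SE 0.36, adjusted p = 0.61), and Tipin, a fork protection factor, 9.66, 10.03 and 10.35 against 10.72, 10.50 and 10.18 (0.45, SE 0.31, adjusted p = 0.303).

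Among the kinases, cyclins and checkpoint genes, 4 of 8 rose. Cdk1, the kinase that starts mitosis, read 7.05, 8.45 and 8.51 in WT and 9.57, 9.57 and 9.19 in GIT2KO spleen, without overlap, and differed by 1.44 (SE 0.44, adjusted p = 0.0187). Birc5 (survivin), which guides Aurora B to the centromere, read 9.19, 10.27 and 10.69 against 11.46, 11.38 and 10.68, with the lowest GIT2KO value just under the highest WT value, and differed by 1.13 (SE 0.34, adjusted p = 0.0192). Its 2 other probes differed by 2.12 and 1.66 (adjusted p = 0.000277 and 0.00161). Plk1 passed at 0.85 (SE 0.31, adjusted p = 0.0479) and Ube2c at 0.60 (SE 0.20, adjusted p = 0.0326), both with overlap. Ube2c was detected on 2 of 4 WT and 2 of 3 GIT2KO arrays. Its call is no support, because the filter could keep it through GIT2KO spleen, its highest group. Cdc20, the activator of the anaphase-promoting complex, read 9.95, 10.42 and 10.48 against 11.13, 10.89 and 10.27 and did not pass (0.48, SE 0.26, adjusted p = 0.184). Aurka, Bub1b and Ccna2 also had positive differences, of 0.25 to 0.55, that did not pass.

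Of the 7 spindle, kinetochore and chromosome genes, Top2a alone passed. It read 8.37, 9.35 and 9.56 in WT and 10.56, 10.55 and 10.01 in GIT2KO spleen, without overlap, a difference of 1.28 (SE 0.36, adjusted p = 0.0123). Prc1, which bundles the central spindle, came next at 0.90 (SE 0.33, adjusted p = 0.0512), followed by Kif11 at 0.88 (adjusted p = 0.0768). In both of these WT spleen 1 held the lowest value. The median difference of the 7 spindle genes, 0.77, was close to that of the licensing genes, 0.90, while their SDs among the WT spleens reached 0.96 (Tpx2).

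**Figure D3:**
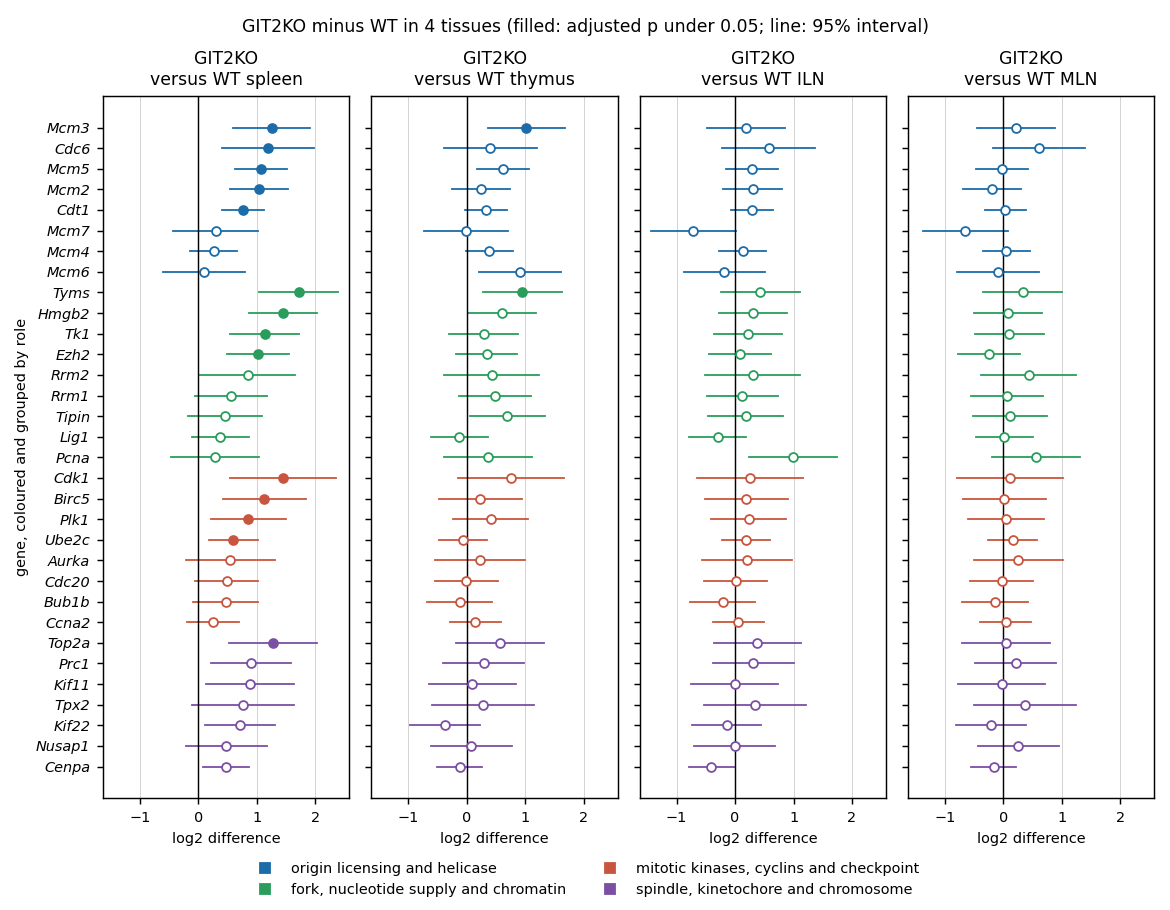
GIT2KO minus WT difference of each gene on the log2 scale in spleen, thymus, ILN and MLN, with its 95% interval; filled points passed at an adjusted p under 0.05. Filled points number 14 in spleen, 2 in thymus and 0 in either node, and in spleen every point lies to the right of 0.

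The count for the spleen varied with the samples. It was 8 without WT spleen 1, 8 without GIT2KO spleen 2 and 9 without GIT2KO spleen 1, and it was 18 without GIT2KO spleen 3. Markers of blood cell precursors also differed between the spleens of the 2 genotypes. Neutrophil precursor markers averaged 7.61, 10.72 and 9.75 in the WT spleens and 12.31, 12.73 and 11.50 in the GIT2KO spleens, with 6 of 8 genes higher, led by Ngp (4.02), Prtn3 (3.33) and Elane (3.32). Erythroid precursor markers averaged 9.11, 11.34 and 11.33 in WT and 11.96, 11.97 and 11.69 in GIT2KO spleen. Of these, 3 of 6 were higher: Ermap (2.50), Klf1 (2.06) and Rhag (1.68). Their SDs among the WT spleens were 2.38, 1.89 and 1.03. Slc4a1 (0.85), Alas2 (0.56) and Hba-a1 (0.02) did not pass. Each of the 8 neutrophil precursor genes was detected on all 3 GIT2KO arrays and on 3 or 4 of the 4 WT arrays. Their part in the result was not tested. WT spleen 1 was the lowest of the 6 spleens in the cell division, neutrophil and erythroid means. GIT2KO spleen 3 was the lowest of the GIT2KO spleens in each. Among the other samples the order differed. WT spleen 2 was above WT spleen 3 in the neutrophil mean but below it in the cell division mean (9.11 and 9.29).

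**Figure D4:**
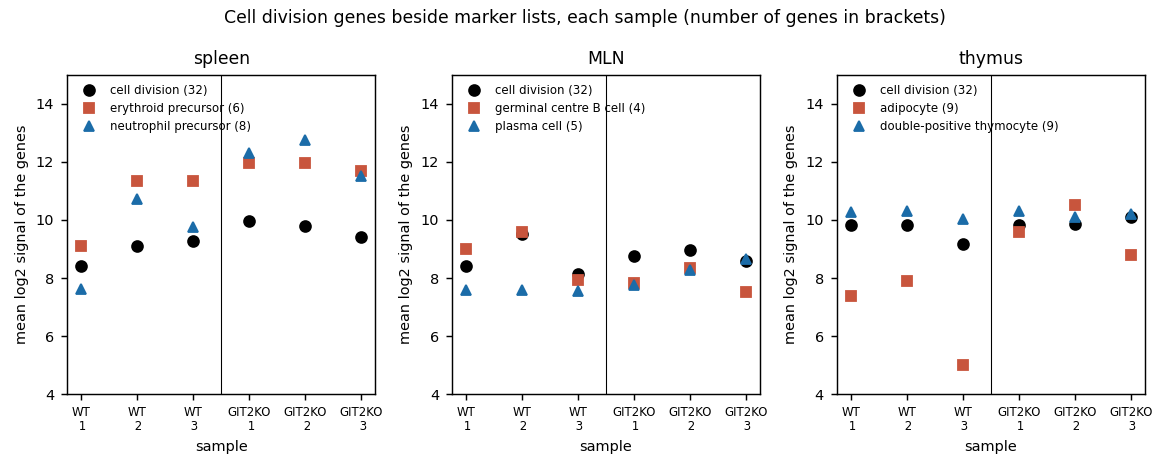
Mean log2 signal of the 32 cell division genes (black circles) beside 2 marker lists, in each sample of spleen, MLN and thymus. In spleen the neutrophil precursor and erythroid precursor means are lowest in WT 1, as is the cell division mean. In MLN the germinal centre B cell mean is highest in WT 2, and in thymus the adipocyte mean is higher in all 3 GIT2KO samples.

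Other genes of replication and mitosis, listed apart from the 40, were also higher in GIT2KO spleen where they passed. These lists were chosen with earlier results of these data known. Here and below they describe the same samples and are not separate evidence. Over all genes tested, 10.6% passed as higher and 13.7% as lower. Of 29 further replication genes, 7 rose and 0 fell, with a median difference of 0.32, led by the histone chaperones Asf1b (1.56, SE 0.28, adjusted p = 0.000367) and Chaf1b (0.90, SE 0.25, adjusted p = 0.0121) and the flap endonuclease Fen1 (0.80, SE 0.21). Of 35 further mitosis genes, 10 rose and 0 fell, with a median of 0.58, led by Cdca8, a partner of Birc5 in the chromosomal passenger complex (1.86, SE 0.35), and Anln, which acts in the closing furrow (1.29, SE 0.34). Of 18 cell cycle transcription factors and G1/S cyclins, 6 rose, among them the cyclins Ccne2 (1.55, SE 0.43) and Ccne1 (1.09, SE 0.38) and the factor Mybl2 (1.14, SE 0.34).

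In the thymus, 2 of the 32 genes rose in GIT2KO mice and 0 fell, a share of 6.25%, where 6.96% of all genes tested passed as higher and 9.17% as lower. Mcm3 read 7.85, 7.71 and 7.20 in WT and 8.55, 8.41 and 8.83 in GIT2KO thymus, a difference of 1.02 (SE 0.32, adjusted p = 0.0312). Tyms read 9.81, 9.66 and 8.88 in WT and 10.39, 10.23 and 10.57 in GIT2KO thymus, a difference of 0.95 (SE 0.33, adjusted p = 0.0476). In both genes all 3 GIT2KO thymi lay above the WT thymi, as they did for 10 of the 32 genes (31.2%, against 16.5% of all genes tested), and the median over the 32 was 0.31, against −0.05 over all genes. Just outside the threshold, Mcm5 read 11.38, 11.29 and 10.77 against 11.55, 11.73 and 12.02 (0.62, SE 0.22, adjusted p = 0.0507) and Mcm6 9.87, 9.39 and 9.36 against 10.54, 10.39 and 10.41 (0.91, SE 0.34, adjusted p = 0.0656). Further down the list, Cdk1 (0.76), Tipin (0.69), Hmgb2 (0.61) and Top2a (0.57) had no overlap but did not pass, whereas Cdc20, Kif11, Nusap1, Cenpa and Kif22 had differences between −0.37 and 0.09. The medians were 0.39 for the licensing genes, 0.43 for fork and nucleotide supply, 0.19 for kinases and checkpoint and 0.09 for spindle genes, and the difference between roles was not tested.

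The 2 thymus calls were lost in 5 of the 6 fits that left out 1 thymus sample, the exception being WT thymus 1, without which 3 genes passed. WT thymus 3 was lowest for 31 genes, with Tyms at 8.88 and Rrm2 at 8.48. It was also lowest in adipocyte markers, at a mean of 5.02 beside 7.37 and 7.88 in the other WT thymi and 9.59, 10.52 and 8.79 in the GIT2KO thymi. With that mean as a covariate 0 of the 32 genes passed. Double-positive thymocyte markers stayed between 10.04 and 10.32 in all 6 thymi. Erythroid precursor markers averaged 5.89, 6.94 and 5.75 in WT and 7.63, 8.12 and 6.30 in GIT2KO thymus, again lowest in WT thymus 3, and 2 of 6 tested were higher in GIT2KO, Hba-a1 (2.96, adjusted p = 0.00435) and Alas2 (2.65, adjusted p = 0.0238). Slc4a1 (1.11) and Rhag (0.09) did not pass, and Klf1 and Ermap were not detected in thymus of either genotype. Neutrophil precursor markers averaged 5.74, 5.08 and 5.40 against 5.71, 5.96 and 5.51, and 1 of 8 was higher, S100a8 (2.03, adjusted p = 0.0396). What part these cells had in the 2 calls was not tested. The covariate fit cannot show it for adipocytes, because their mean was higher in every GIT2KO thymus than in any WT thymus. From the other lists, Asf1b (1.18), Rpa3 (0.72), Kpna2 (1.23), Shcbp1 (1.10), Melk (0.73) and Ccne2 (1.56) were among those that rose, which numbered 3 of 29 replication genes, 3 of 35 mitosis genes and 2 of 18 transcription factors and cyclins, and 0 fell. Over all genes tested, 6.96% passed as higher and 9.17% as lower, so these counts are close to the share of all genes.

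In the lymph nodes, no cell division gene passed between genotypes. In ILN 0 of 32 passed by limma and 2 had an unadjusted p under 0.05, where 0.886% of all genes tested passed as higher and 1.82% as lower, and the median difference was 0.19. The largest was that of Pcna, at 6.06, 6.16 and 5.32 in WT and 6.94, 6.95 and 6.63 in GIT2KO ILN (0.99, SE 0.36, adjusted p = 0.195), without overlap. Mcm7 went the other way (−0.72, SE 0.35, adjusted p = 0.394), also without overlap. In all, 5 genes were higher without overlap (13.7% of all genes tested were) and 3 lower (16% were). In MLN 0 of 32 passed and 0 had an unadjusted p under 0.05, with background shares of 0.81% and 1.34% and a median of 0.05. The widest differences were −0.65 for Mcm7 (95% interval −1.38 to 0.07) and 0.61 for Cdc6 (−0.18 to 1.40), so differences above 1 log2 unit in some genes are within the intervals. The genotypes did not overlap for 1 gene, Ube2c, which was higher in GIT2KO MLN (3.12%, against 9.34% of all genes tested) and was detected on 0 arrays of either group. WT MLN 2 stood above every GIT2KO MLN sample while its group mates stood below them, as for Cdk1, at 7.46, 9.49 and 6.87 in WT and 8.06, 8.39 and 7.73 in GIT2KO MLN. Top2a read 8.36, 10.39 and 8.56 in WT and 9.22, 9.34 and 8.90 in GIT2KO MLN. Germinal centre B cell markers averaged 8.99, 9.58 and 7.93 in the WT MLN and 7.82, 8.34 and 7.52 in the GIT2KO MLN, again highest in WT MLN 2. Their part in the result was not tested.

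Whether the GIT2KO effect itself differs between the 4 tissues was tested for each gene. By a moderated F test 0 of 32 genes passed (lowest adjusted p = 0.0827, Mcm5) and 7 had an unadjusted p under 0.05, where 8.01% of all genes tested passed. Between pairs of tissues, 4 genes passed in 1 of the 6 differences, spleen minus MLN, where 4.27% of all genes tested passed in that direction. The effect was greater in spleen by 1.23 for Mcm2, 1.10 for Mcm5, 1.27 for Ezh2 and 1.37 for Hmgb2. The larger number of calls in spleen than in thymus is therefore not shown to be a difference between these tissues, since 0 genes passed for spleen minus thymus (Tyms 0.77, SE 0.46, adjusted p = 0.381).

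Parathymic lobes had lower levels of these messages than the thymus of the same genotype. Against GIT2KO thymus, 29 of the 32 genes were lower in PTL and 0 higher, where 21.3% of all genes tested passed as lower and 20.1% as higher, with a median difference of −1.59 against 0 over all genes. The values did not overlap for 31 of the 32 genes (26.1% of all genes). Ezh2 fell by 2.26 (SE 0.26, adjusted p = 1.38e-07), from 11.75, 11.84 and 11.97 in GIT2KO thymus to 9.73, 9.86 and 9.18 in PTL. Top2a fell by 2.22 (SE 0.36, adjusted p = 2.54e-05), from 10.82, 11.03 and 11.23 to 8.81, 8.86 and 8.75. Kif11 fell by 2.19 (SE 0.36, adjusted p = 2.97e-05), from 9.19, 9.28 and 9.54 to 7.08, 7.54 and 6.83, and Rrm2 fell by 2.14 (SE 0.39, adjusted p = 0.000101), from 9.56, 9.33 and 9.87 to 7.45, 7.11 and 7.78. The 7 spindle genes all fell, with a median of −2.08, and the 8 licensing genes all fell, with a median of −1.20. Cdt1 (−0.51), Tk1 (−0.76) and Mcm4 (−0.81) fell least among the passing genes, Pcna did not pass (−0.53, adjusted p = 0.269), and Ccna2 (−0.40) and Ube2c (−0.44), which were not detected in PTL, did not pass either. The further lists were lower too, with 23 of 29 replication genes, 33 of 35 mitosis genes and 13 of 18 transcription factors and cyclins, led by Ccne2 (−2.65), E2f2 (−2.49), Spc25 (−2.48) and Anln (−2.46). Double-positive thymocyte markers (mean 6.39 to 6.45 in PTL, 10.11 to 10.32 in GIT2KO thymus) and thymic epithelium markers (5.02 to 5.35 against 10.9 to 11.1) were lower in PTL, and B cell markers higher (10.2 to 10.9 against 6.64 to 7.86). Their part in the result was not tested.

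**Figure D5:**
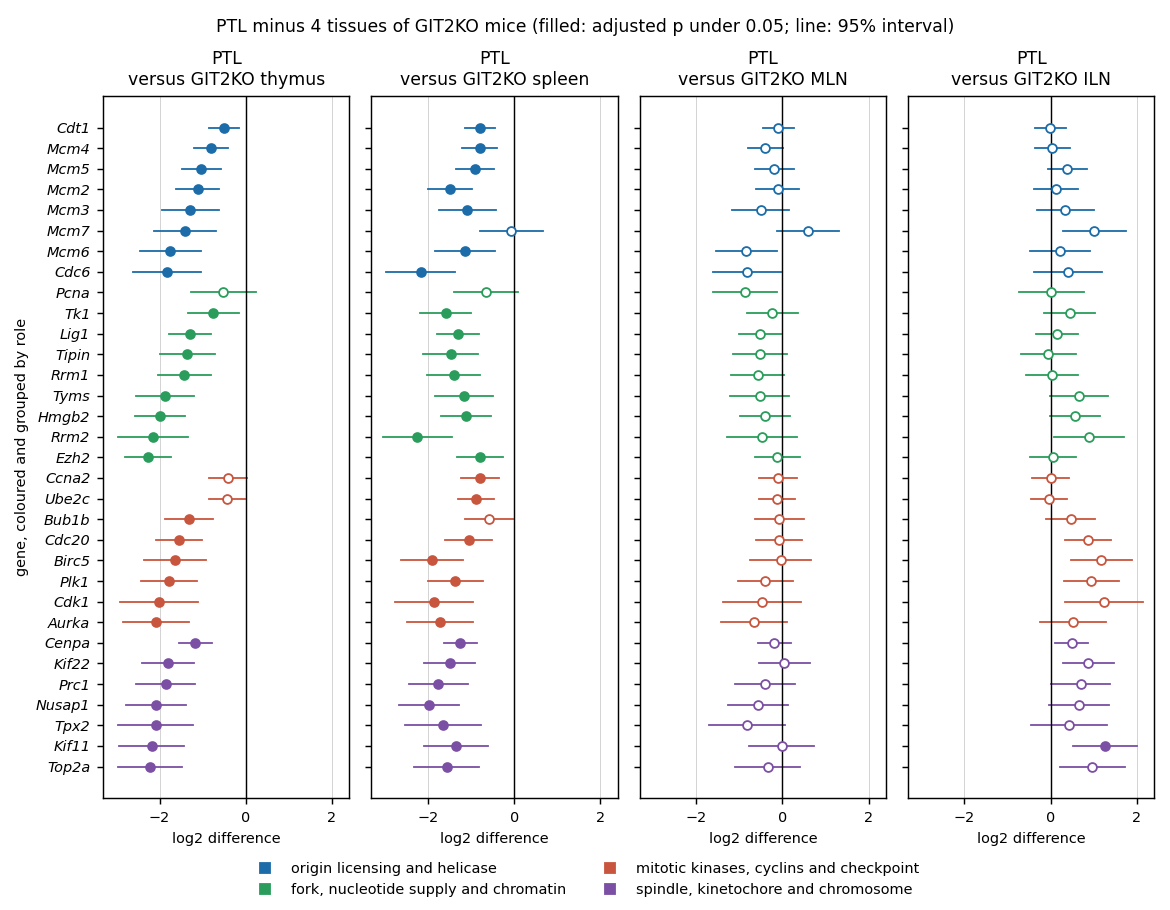
PTL minus GIT2KO thymus, spleen, MLN and ILN for each gene on the log2 scale, with its 95% interval; filled points passed at an adjusted p under 0.05. Against thymus and spleen 29 points are filled and lie left of 0, against MLN 0 are filled, and against ILN 1 is filled and lies right of 0.

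Against the spleen of GIT2KO mice the PTL were also lower in 29 of 32 genes and higher in 0, where 10.5% of all genes tested passed as lower and 8.93% as higher, with a median of −1.33. The differences were widest for Rrm2 (−2.24), Cdc6 (−2.17) and Nusap1 (−1.98), and Mcm7 was level (−0.06, adjusted p = 0.94). Ube2c and Ccna2 were not detected in PTL and were at least 1.25-fold and 1.05-fold higher in spleen. Both count among the 29. They were detected on 7 and 3 of the 31 arrays, and their highest group mean was that of GIT2KO spleen. The filter could therefore keep them through the group where they are high, and these 2 calls are no support for the difference. The PTL values did not overlap those of GIT2KO spleen for 30 genes (16.4% of all genes). Markers of blood cell precursors differed between the same samples. Neutrophil precursor markers averaged 6.00, 5.40 and 7.66 in PTL and 12.31, 12.73 and 11.50 in GIT2KO spleen, and 8 of 8 tested were lower in PTL. Erythroid precursor markers averaged 7.08, 6.89 and 6.34 against 11.96, 11.97 and 11.69, and 5 of 6 tested were lower, among them Slc4a1 (−8.85), with Klf1 and Ermap not detected in PTL. What part they had in the lower values was not tested. Against the nodes fewer genes passed. Compared with GIT2KO ILN, 1 of 32 genes was higher, Kif11, at 7.08, 7.54 and 6.83 in PTL and 5.85, 5.69 and 6.12 in ILN (1.26, SE 0.36, adjusted p = 0.0462), and 0 were lower, where 2.4% and 2.19% of all genes tested passed. The PTL values lay above all ILN values for 17 of the 32 genes (53.1%, against 9.43% of all genes), among them Cdk1 at 7.59, 7.57 and 7.59 against 6.45, 6.23 and 6.37 (1.24, SE 0.44, adjusted p = 0.124) and Birc5 at 8.83, 9.12 and 9.85 against 8.12, 8.17 and 8.00 (1.17, SE 0.34, adjusted p = 0.0547). The median was 0.45. Adipocyte markers averaged 10.79, 9.43 and 7.85 in PTL, 7.93, 7.76 and 6.28 in GIT2KO ILN and 7.93, 7.87 and 7.78 in GIT2KO MLN. Against ILN, Ucp1 (6.27), Cidea (4.49) and Plin1 (1.75) were higher, while Lep (−0.25) and Car3 (−0.22) leaned lower without passing. Plasma cell markers averaged 8.41, 8.80 and 9.03 in PTL and 7.25, 7.19 and 8.08 in GIT2KO ILN. What part either had in the result was not tested. The Kif11 call was lost without PTL 1 (where 2 other genes passed), without PTL 2 and without any 1 of the 3 ILN samples. Mitotic genes differed more (medians of 0.69 for kinases and checkpoint and 0.69 for spindle genes) than licensing genes (0.28) and fork genes (0.13), without a test of that contrast. Compared with GIT2KO MLN, 0 of 32 passed (4 at an unadjusted p under 0.05), where 3.03% passed as higher and 2.51% as lower, and the median was −0.40, with 14 genes lower without overlap (43.8%, against 15.8%).

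Because 2 of the 3 PTL samples came from animals that also gave the other tissues, these comparisons were repeated with the animal as a block within the compared groups. This called 10 genes higher against ILN and 13 lower against MLN, in a fit with few samples per animal, and moved neither the count against thymus nor that against spleen by more than 1.5 times. The comparisons of PTL with thymus, spleen, ILN and MLN share the PTL samples and are given side by side, not as separate evidence.

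In WT mice, the tissues themselves set wide differences. Thymus was above ILN for 30 of 32 genes and below for 0, where 21.4% of all genes tested passed as higher, with a median of 1.87. Kif11 differed most, at 9.43, 9.67 and 8.63 in thymus and 5.90, 6.09 and 5.69 in ILN (3.35, SE 0.36, adjusted p = 6.24e-08), followed by Top2a (3.00), Rrm2 (2.90) and Kif22, a chromosome-binding motor (2.90). Tpx2 was not detected in WT ILN and was at least 4.94-fold higher in thymus. Spindle genes had a median difference of 2.64 and kinases and checkpoint genes of 2.49, licensing genes of 0.98. Thymus was above MLN for 19 genes (23.4% of all genes tested) and above spleen for 12 (22.8%), and 0 genes were lower in either comparison, with Ezh2 (2.15, SE 0.26, adjusted p = 2.83e-07) and Hmgb2 (1.71, SE 0.28) foremost against spleen. Ezh2 was the gene in which WT spleen was lowest of all 9 groups, at 9.17, 9.74 and 9.19.

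WT spleen was above WT ILN for 23 of 32 genes (12.7% of all genes tested), led by Rrm2 (2.58, SE 0.39), Birc5 (2.14) and Nusap1 (2.14), with 14 genes passing without WT spleen 3. It was above WT MLN for 2, Rrm2 (1.36, adjusted p = 0.0123) and Nusap1 (1.19, adjusted p = 0.0107), a share below the 14.2% of all genes tested. WT MLN was above WT ILN for 11 genes and below for 0 (2.4% and 4.75% of all genes tested), led by Cdk1 (1.85, SE 0.44, adjusted p = 0.0117) and Top2a (1.64). Both counts moved with single samples. WT MLN was above WT ILN for 1 gene without WT MLN 2, for 2 without WT ILN 1 or WT ILN 3, and for 25 without WT MLN 3. WT spleen was above WT MLN for 13 genes without WT MLN 2 and for 9 without WT spleen 1. It was above for 2 and below for 2 without WT spleen 2, above for 0 and below for 4 without WT MLN 3, and 0 genes passed without WT MLN 1 or WT spleen 3. With the animal as a block within the compared groups, the counts were 1 for MLN against ILN and 0 for spleen against MLN. Erythroid precursor markers were at 9.11 to 11.3 in WT spleen and 5.76 to 6.82 in the WT nodes, and neutrophil precursor markers at 7.61 to 10.7 against 4.90 to 6.76. Their part in these differences was not tested.

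Members without a tested value were Mki67, Ccnb1, Aurkb and Gins2, for which no probe carried the symbol, and Ccnb2, Bub1, Ttk and Kif20a, whose probes were below detection on all 31 arrays (signals of 45.6 to 89.3). They have no result here. Of the 12 genes with more than 1 tested probe, the 21 other probes had the sign of the one used in 19 cases for the spleen comparison and 20 for PTL against thymus, but in 11 for the thymus comparison and 13 for MLN.

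The genes outside the list with the most similar profile over the 27 samples were Mcm10, Sgo1, Kif4, Clspn, Pbk, Cdca5, Ncaph, Cenpp, Cenpi and Cdc45, with Pearson r of 0.97 to 0.98 to the mean of the 32. The most opposed were Sgms1 (−0.94), Nfatc4 (−0.93), Slc10a6, Scara3 and Stmn2 (each −0.91). These correlations describe 27 samples of 9 groups that share animals.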

How the data were processed

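RNA of 27 samples was read on 31 Illumina MouseRef-8 arrays, 4 samples having a repeat array. The authors scanned the arrays and exported them with GenomeStudio 2011.1, as named in the submitters' processing notes. The intensity values deposited by the authors are non-normalized probe signals, and the deposited detection p-value beside each signal compares it with negative control beads. The authors also deposited a score per probe, the log10 signal z-transformed per array, used here as an alternative. The gene lists of the authors' own comparisons in the supplement hold Z ratios and were not used.

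From the deposited intensities, neqc in limma 3.58.1 (R 4.3.3) corrected background with an offset of 16, quantile-normalized and took log2. Repeat arrays were averaged with the first. Probes with a detection p under 0.05 on 3 or more arrays were kept (15291 of 25697), and each gene was represented by its brightest tested probe, judged by the mean over all samples. Symbols came from the array annotation (23978 probes with 1 symbol, 0 with several, 1719 with none). All 9 groups went into 1 linear model with moderated statistics and a trend, adjusted by Benjamini-Hochberg over all tested probes of a comparison at 0.05. The model was tested on simulated data. Where a group did not detect a probe, its values were raised to the lowest detected signal of the array and the fold is a lower bound. Promoter windows are from RefSeq (GRCm38.p6).

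All 40 genes are named. Values in every sample are given for a set core of them and for up to 4 passing genes of a comparison, and the 10 best correlated outside genes are named. The 40 genes, the roles and the other lists were chosen with earlier results of these data known. The samples of a group come from different animals. Tissues of a genotype share animals, as the sample descriptions state. Deviations from group means correlated at −0.23 to 0.29 between tissues of an animal. A block by animal is given where it changed a count by over 1.5 times. Alternatives were other scalings and filters, a robust spread, first or repeat arrays alone, any probe of a gene, an adipocyte covariate, the compared groups alone, blocks, and leaving out each sample.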

Additional observations from a re-analysis of the deposited data

Results flagged for a closer look

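In 4 of the 32 genes the GIT2KO effect differed between spleen and MLN by a test of the difference itself (limma, adjusted over all probes tested), in 1 of 6 pairs of tissues examined. The effect in spleen exceeded that in MLN by 1.23 for Mcm2 (SE 0.34, adjusted p = 0.024), by 1.10 for Mcm5 (adjusted p = 0.0247), by 1.27 for Ezh2 (adjusted p = 0.0271) and by 1.37 for Hmgb2 (adjusted p = 0.0293). In each of the 4 genes all GIT2KO spleens lay above all WT spleens, while the GIT2KO and WT MLN values overlapped. The count ranged from 0 to 9 when single samples were left out. It was 1 without WT MLN 2 (Hmgb2), 1 without WT spleen 1 (Mcm2), 1 without GIT2KO MLN 1 (Mcm2), 1 without GIT2KO spleen 1 (Hmgb2), 0 without GIT2KO MLN 3 or without GIT2KO spleen 2, and 9 without WT MLN 3.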

How the results depend on the processing

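Of 182 counts of passing cell division genes under other settings, 150 were within 1.5 times the count reported and 32 were not. For the 2 genes of GIT2KO against WT thymus, the count was 0 with median scaling and 0 with the adipocyte mean as a covariate, 1 with the deposited z-transformed log10 values, with no filter, with a robust spread and with the repeat array alone, 5 in the compared groups alone, and 6 with any tested probe of a gene. For the 1 gene of PTL against GIT2KO ILN it was 0 with no background correction, median scaling, the deposited values, no filter or the repeat array alone, 2 in the compared groups alone (neither of them the gene reported), 3 with any tested probe and 10 with a replicate block by animal. For PTL against GIT2KO MLN it was 1 with median scaling and 13 with that block, all lower in PTL. GIT2KO against WT ILN gave 2 in the compared groups alone, 1 higher and 1 lower. WT thymus against MLN gave 12 of 19 in the compared groups alone. WT spleen against MLN gave 1 with median scaling, 5 with any probe (3 higher and 2 lower), 0 in the compared groups alone and 0 with the block by animal. WT MLN against ILN gave 5 with median scaling, 6 with the deposited values, 0 in the compared groups alone and 1 with the block by animal. The cause of these shifts was not tested. The direction of single genes was followed only for named differences that had passed. None of them reversed in 395 values under other settings, 23 of which no longer passed. With a sample left out, none reversed in 474 values, 78 of which no longer passed. Because these differences were picked for passing, a reversal was unlikely from the start. Named differences that did not pass were not followed in this way, so the stability of their sign is not shown.

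The replicate numbers of GIT2KO and WT mice are only names. Samples with the same number correlated in their deviations at −0.12 to 0.26, and others at −0.25 to 0.20. A replicate block in the compared groups gave 9 genes in spleen in place of 14, 6 in thymus in place of 2 and 3 in ILN (1 higher and 2 lower) in place of 0, and 1 in place of 0 for the test of differences between tissues.

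Leaving out 1 sample at a time, the count ranged from 8 to 18 in spleen, 0 to 3 in thymus, and was 0 throughout in ILN and MLN. It ranged from 27 to 28 for PTL against thymus, 25 to 30 against spleen and 0 to 2 against ILN, and was 0 throughout against MLN. Between WT tissues it ranged from 25 to 30 for thymus against ILN, 15 to 26 against MLN and 9 to 15 against spleen, 14 to 25 for spleen against ILN, 0 to 13 for spleen against MLN (with 4 lower without WT MLN 3) and 1 to 25 for MLN against ILN. For the test between tissues it ranged from 0 to 5, the 5 being without WT MLN 3.

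Median scaling moved the median of all genes to 0.17 in GIT2KO against WT MLN and to −0.12, −0.14, −0.23 and −0.16 for PTL against thymus, ILN, MLN and spleen, where the medians of the 32 genes became 0.29, −1.83, 0.31, −0.72 and −1.61. The share of higher calls over all genes went from 43.5% to 69.5% in spleen, 37.6% to 69.3% in MLN, 48.6% to 38.3% for PTL against thymus, 52.3% to 31.5% against ILN, 54.7% to 14% against MLN and 46% to 24.5% against spleen, 49.9% to 39.7% for WT spleen against ILN and 33.6% to 20.2% for WT MLN against ILN. Signals near background limit Ccna2, Ube2c and, in WT ILN, Tpx2.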
